A study of Mus musculus with 53 samples.

Results

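Rbm10 was 1 of 11 genes targeted in a pool of lentiviral vectors, each with an sgRNA, a DNA barcode and Cre recombinase, that was delivered to mouse lungs through the trachea. A barcode marks the tumour started by 1 transduced cell, and the deposited table gives the number of cells of each barcoded tumour. The rows labelled Rbm10 in the 15-week pool mice were taken, 11574 of the 335123 tumours of those mice and of the 409584 tumours of the whole series, and were set against the rows labelled Inert of the same mouse, 91281 tumours of vectors that target none of the 11 genes. No Rbm10 tumour was listed in the 9-week mice, which had received single vectors. The groups are named KTC (n = 10 mice), KPTC (n = 12) and KLTC (n = 13) in the labels, all transduced with Lenti-sgTS/Pool and with 15 weeks of tumour growth. By the usual naming of such strains, all 3 share a fluorescent reporter (T) and a Cas9 allele (C), and the floxed alleles P and L add deletion of p53 or of Lkb1. The sources used here do not give age, sex or the promoter of each allele, and DNA came from whole lungs, so the labelled lung epithelium could not be checked by markers.

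RBM10 is an RNA-binding protein that acts with the spliceosome and sets how often alternative exons are included, among them an exon of the Notch regulator NUMB. Its gene lies on the X chromosome in the mouse, and RBM10 is recurrently inactivated in human lung adenocarcinoma. A vector against a tumour suppressor is known to let the tumours it starts outgrow those of inert vectors in the same lung, which is the readout used here. The sgRNA sequence against Rbm10 was not used here.

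Rbm10 tumours are known in the table only by barcode, and 4 barcodes are shown: those of the largest Rbm10 tumour of each genotype, on which the shares of cells turn, and the one listed in the most mice. Of the Rbm10 rows, 94.6% had a barcode of 21 bases made of a fixed AA, TT and AA, each followed by 5 free bases, against 91.5% of inert rows. The 15 free bases are in capitals below and the 6 shared ones in lower case, 5′ to 3′.

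Largest Rbm10 tumour of KTC mice: aaCATTTttGGTACaaCAGGA

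Largest Rbm10 tumour of KPTC mice: aaGCCCTttTGAACaaACTCC

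Largest Rbm10 tumour of KLTC mice: aaCGAAGttAACGTaaTCAAA

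Rbm10 barcode listed in the most mice: aaCGGATttATAGTaaCTAGG

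Each of these barcodes was listed above 1000000 cells in 1 mouse and at 44004 cells or less in every other mouse that listed it. The barcode of the KTC tumour was listed in 7 mice, all KTC, at 2.99e+06 cells in replicate 6 and at no more than 3795 cells in the others. The barcode of the KPTC tumour was listed in 15 mice of all 3 genotypes, at 7.06e+07 cells in KPTC replicate 12 and next at 44004 cells in KPTC replicate 6, with a median of 10010 cells over the other 14 mice. In 7 of those 14 it lay above the 95th percentile of that mouse's Rbm10 tumours, which the other 3 barcodes did in 0 of their other mice. That of the KLTC tumour was listed in 10 mice, at 2.70e+06 cells in KLTC replicate 8 and next at 3684 cells in KPTC replicate 1. The barcode found in the most mice was listed in 17, at 1.53e+06 cells in KTC replicate 4 and next at 11131 cells. Sharing of Rbm10 barcodes went with size: 17 of the 17 Rbm10 barcodes that reached 1000000 cells in some mouse were listed in 2 or more mice, as were 143 of 183 (78.1%) that reached 100000 cells and 1224 of 7760 (15.8%) that never reached 10000 cells. Over all sizes 18.8% of Rbm10 and 23.6% of inert barcodes of the 15-week mice were shared, and the split by size was not made for inert barcodes. Counted by tumour, a median of 35.1%, 37.6% and 69.3% of a mouse's Rbm10 tumours had a shared barcode in KTC, KPTC and KLTC. The inert medians were 44.9%, 48.8% and 70.3%, where sharing with 9-week mice also counts. Removal of all shared barcodes, used below, leaves out these tumours. Size here is the largest over mice, so a barcode listed in more mice had more chances to reach it. The part of these repeated barcodes in the results below was not tested beyond the values given without them.

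**Figure D1:**
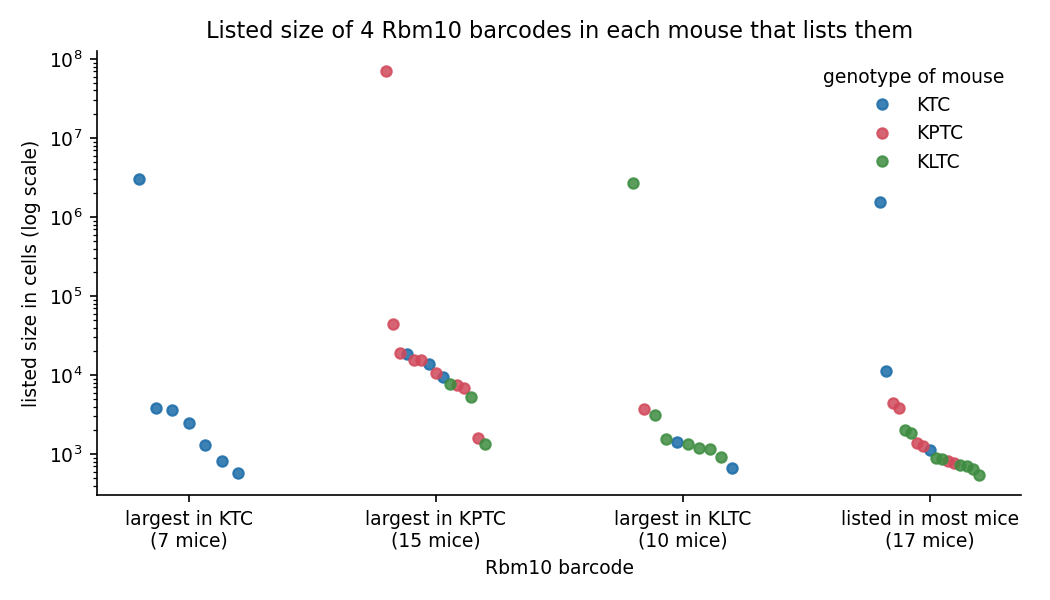
Listed size in cells (vertical axis, log scale) of the 4 Rbm10 barcodes shown above (horizontal axis), with a point for each mouse that lists the barcode, coloured by genotype. Each barcode has 1 point above 1000000 cells, and the next highest is 44004 cells for the barcode of the KPTC tumour and at most 11131 cells for the others.

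Rbm10 had the fewest tumours of the 11 targets, with Keap1 next at 17565. Listed Rbm10 tumours per mouse had a lowest, median and highest value of 33, 507.5 and 882 in KTC, 119, 347 and 1137 in KPTC, and 19, 98 and 530 in KLTC. The smallest listed size of a mouse lay between 500.6 and 982.2 cells. Sizes within a mouse came in steps, as whole reads would give: in 32 of 35 mice over 97% of the small sizes tested had another listed size exactly 1 step below, within 0.02 cells. A step was worth 25.0 to 486 cells in those 32 mice and was less sure in the others. The lowest value of all, 13.8 cells, is that of KLTC replicate 1, where 45.5% of the small sizes had another 1 step below. In 6 mice the smallest listed tumour was about 2 steps. The sources used here do not say what a step stands for, so values carry no counting interval and every error is the SD or SE over mice. The median Rbm10 tumour of a mouse was 3.10 to 55.0 steps (at most 37.6 in the 32 mice), and the 95th percentile 23.1 steps or more.

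KTC mice carry neither floxed gene and address whether Rbm10 limits tumour growth where p53 and Lkb1 are not deleted by the genotype. The log-normal mean size, an average that weighs the upper tail through the variance of log sizes, had a lowest, median and highest value over mice of 1455, 3055 and 3908 cells for Rbm10 tumours and of 1179, 2432 and 3624 cells for inert tumours. The mice overlap between these ranges, but Rbm10 tumours were the larger in 10 of 10 mice, with within-mouse log2 ratios from 0.11 to 0.41. The mean was a log2 ratio of 0.26 ± 0.10 (SD, n = 10), a 1.20-fold size, with an adjusted p of 0.00716 by two-sided exact sign-flip permutation test over mice, adjusted over the 11 targets. In the same test 5 of 11 targets (45.5%) rose, so a rise was not particular to Rbm10. It was 0.24 ± 0.098 in 8 mice whose ID begins with IW and 0.36 ± 0.073 in 2 that begin with MW. The rise kept its call without any single mouse (0.25 to 0.28) and lost it at minimum sizes of 1500 cells (0.33, adjusted p 0.0645) and 5000 cells (0.26, adjusted p 0.172) and with the median in place of the log-normal mean (0.043, adjusted p 0.258).

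In KPTC mice, where p53 is deleted as well, Rbm10 tumours had log-normal means of 1420, 2127 and 5751 cells (lowest, median and highest mouse), against 1360, 1823 and 5001 cells for inert tumours. Rbm10 tumours were the larger in 9 of 12 mice, with within-mouse log2 ratios from −0.17 in replicate 1 to 0.53 in replicate 2. The mean ratio of 0.098 ± 0.19 (SD, n = 12) did not pass the exact sign-flip permutation test (adjusted p 0.107), in a genotype where 8 of 11 targets (72.7%) rose. It passed without replicate 1 (0.12, adjusted p 0.0382) and at a minimum of 1000 cells (0.19, adjusted p 0.0140). It was 0.059 without replicate 2 (adjusted p 0.214) and 0.019 with the single largest tumour per target and mouse removed (adjusted p 0.814). That removal takes a larger part of the Rbm10 tumours (119 to 1137 per mouse) than of the inert ones (1069 to 8178), so it does not treat them evenly. By ID prefix, the mean log2 ratio was 0.057 ± 0.13 (SD) in 7 mice of IW and 0.16 ± 0.25 in 5 without a prefix.

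In KLTC mice, where Lkb1 is deleted, the levels ranged more widely, from 2088 through 13089 to 56340 cells for Rbm10 tumours and from 1824 through 7932 to 70047 cells for inert tumours. Rbm10 tumours were the larger in 6 of 13 mice and the smaller in 7. The mean log2 ratio was 0.12 ± 0.65 (SD, n = 13) and did not pass (adjusted p 0.581, exact sign-flip permutation test), with 1 of 11 targets (9.09%) rising there. The mouse with the most Rbm10 tumours, replicate 6 with 530, had a ratio of −0.045, and replicate 2 with 38 had the highest, 1.45. With the single largest tumour per target and mouse removed, the mean turned to −0.21 (adjusted p 0.571, exact), and with the median it was −0.030. The removal again took a larger part of the Rbm10 tumours (19 to 530 per mouse) than of the inert ones (171 to 4279). Without replicate 2 the mean log2 ratio was 0.0065 (adjusted p 0.967, exact), and without barcodes listed 10 times larger elsewhere it was 0.48 (adjusted p 0.0631, exact). By ID prefix, the mean log2 ratio was 0.094 ± 0.72 (SD) in 7 mice of IW and 0.14 ± 0.61 in 6 of ZR.

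**Figure D2:**
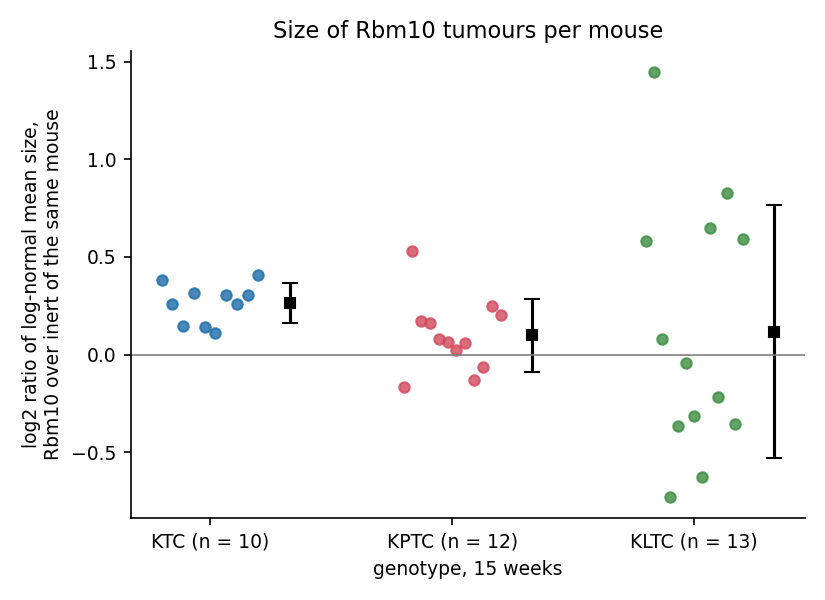
Size effect of Rbm10 (vertical axis), the log2 of its log-normal mean over the inert one in that mouse, in each genotype at 15 weeks (horizontal axis), with a point per mouse and a square and bar for the mean and SD. All 10 KTC mice lie between 0.11 and 0.41, and the SD is 0.10 in KTC, 0.19 in KPTC and 0.65 in KLTC.

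Percentiles show where in the size distribution Rbm10 and inert tumours of KTC mice parted. At the median they were close, with a mean log2 ratio of 0.043 ± 0.10 (n = 10) and identical median sizes in 3 mice, as the steps allow. The ratio was 0.18 ± 0.24 at the 75th percentile (adjusted p 0.0645, exact sign-flip permutation test). At the 90th percentile Rbm10 tumours had 3602, 7229 and 11326 cells (lowest, median and highest mouse) and inert tumours 1900, 5959 and 8443 cells. They were larger in 10 of 10 mice, by a log2 ratio of 0.42 ± 0.23 (adjusted p 0.00716, exact, with 6 of 11 targets, 54.5%, rising). At the 95th percentile the values were 6548, 14966 and 23414 cells for Rbm10 and 3836, 12147 and 17167 for inert, again higher in 10 of 10 mice, with a log2 ratio of 0.47 ± 0.29 (adjusted p 0.00716, exact, with 3 of 11 targets, 27.3%, rising). At the 99th percentile, which only mice with at least 100 Rbm10 tumours entered, the ratio was 0.25 ± 0.48 (n = 9, adjusted p 0.327, exact), higher in 5 mice and lower in 4. The rise at the 90th percentile missed the threshold at minimum sizes of 1500 cells (0.37, adjusted p 0.0967, exact) and 5000 cells (0.088, adjusted p 0.922). The rise at the 95th missed the threshold at minimum sizes of 1000 cells (0.38, adjusted p 0.198, exact), 1500 and 5000 cells, where each percentile falls on fewer and larger tumours.

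KPTC mice had near-equal Rbm10 and inert tumours up to the 90th percentile, with log2 ratios of −0.020 ± 0.18, 0.023 ± 0.11 and 0.081 ± 0.30 at the 50th, 75th and 90th (n = 12). At the 95th percentile Rbm10 tumours had 3185, 10136 and 28714 cells (lowest, median and highest mouse) and inert tumours 4021, 6886 and 22861 cells, a ratio of 0.31 ± 0.52, higher in 9 of 12 mice. This missed the threshold (adjusted p 0.0585, exact sign-flip permutation test), with 6 of 11 targets (54.5%) rising at that percentile, and it passed without replicate 4 (0.38, adjusted p 0.0143) or replicate 9 (0.36, adjusted p 0.0430). Without replicate 2, the highest at 1.61, it was 0.19 (adjusted p 0.117). The 99th percentile had the highest KPTC ratio, 0.52 ± 1.06, which did not pass (adjusted p 0.159, exact). In KLTC mice the ratios were −0.030 ± 0.35, −0.0061 ± 0.77 and 0.14 ± 0.66 at the 50th, 75th and 90th percentiles (n = 13) and −0.29 ± 1.34 at the 95th (n = 12), and none of the 5 percentiles passed, the 99th (n = 6) included. The 95th percentile value was −0.037 without replicate 8, the lowest at −3.02, and −0.53 without replicate 2, the highest at 2.38.

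**Figure D3:**
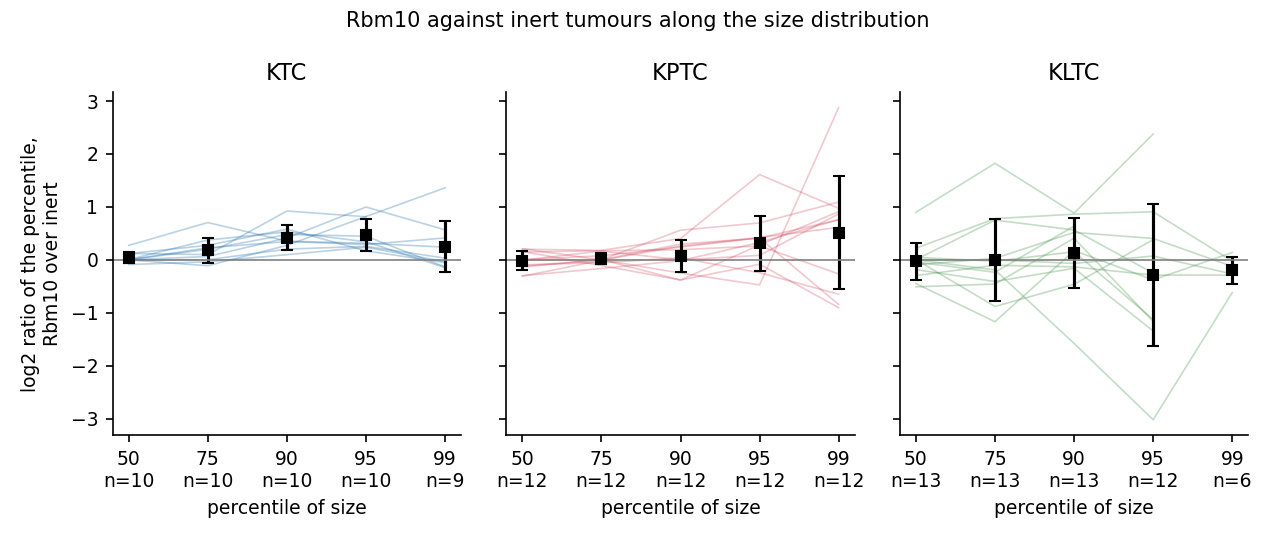
Size of Rbm10 over inert tumours within a mouse, as log2 (vertical axis), at the 50th to 99th percentiles (horizontal axis, with the number of mice), with a line per mouse and a square and bar for the mean and SD. KTC means go from 0.043 at the median to 0.47 at the 95th percentile, and KLTC lines spread on both sides of 0.

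Shares above fixed sizes give the same question in counts of tumours. In KTC mice 3.03%, 7.37% and 10.998% of Rbm10 tumours (lowest, median and highest mouse) had at least 10000 cells, against 2.07%, 6.08% and 8.51% of inert tumours. The share was higher for Rbm10 in 10 of 10 mice, by 1.73 ± 0.89 percentage points (SD, adjusted p 0.00716, exact sign-flip permutation test), among 4 of 11 targets (36.4%) that rose. This excess lay between 10000 and 100000 cells, where it was 1.75 ± 0.79 points and above 0 in 10 of 10 mice, a class chosen after its values were seen and not tested. At 100000 cells or more the difference was −0.019 ± 0.34 points, and at 1000 cells or more 1.94 ± 3.97 points, and neither passed (adjusted p 0.850 and 0.285, exact). At 1000000 cells or more the shares were 0.095% for Rbm10 and 0.023% for inert tumours (means over mice), a difference of 0.071 ± 0.12 points that was above 0 in 4 mice and below 0 in 2 and did not pass (adjusted p 0.229, exact). With the single largest tumour per target and mouse removed, the 10000-cell excess was 1.22 points (adjusted p 0.0698, exact) and no longer passed. Nor did it pass at a minimum of 5000 cells (4.57 points, adjusted p 0.344, exact). Removing 1 tumour takes a larger part of the 33 to 882 Rbm10 tumours of a KTC mouse than of its 482 to 7195 inert ones. The lost call can therefore not be told apart from this uneven removal.

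In KPTC mice the share of at least 10000 cells was 1.55%, 5.13% and 10.3% for Rbm10 tumours and 1.97%, 3.45% and 10.8% for inert ones. The difference of 0.56 ± 1.42 points was above 0 in 7 of 12 mice and did not pass (adjusted p 0.204, exact sign-flip permutation test), where 7 of 11 targets (63.6%) rose. In KLTC mice, whose inert tumours were already large, the shares were 4.34%, 19.1% and 36.6% for Rbm10 and 4.44%, 14.7% and 37.5% for inert tumours. The difference of 0.56 ± 4.41 points was above 0 in 7 of 13 mice and did not pass (adjusted p 0.722, exact). It was −0.17 points without replicate 2, 1.23 without replicate 8, and 4.57 without barcodes listed 10 times larger elsewhere (adjusted p 0.0602, exact). At 100000 cells or more, KLTC mice had 8.52 ± 6.86% of Rbm10 and 7.34 ± 5.29% of inert tumours, a difference of 1.19 ± 2.62 points that did not pass either (adjusted p 0.556, exact).

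**Figure D4:**
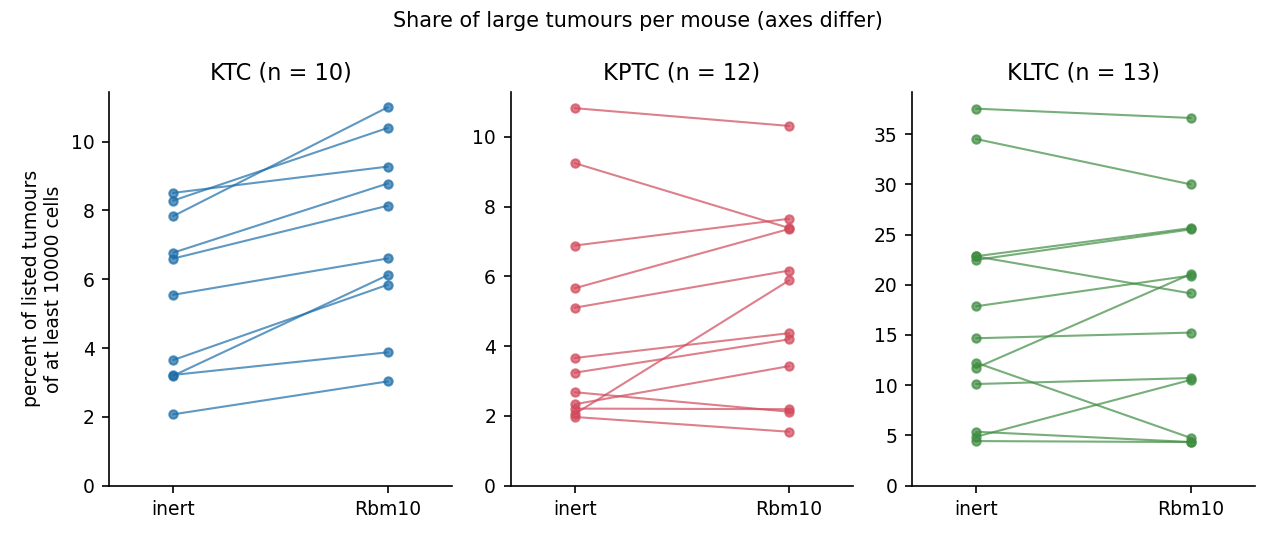
Percent of listed tumours of at least 10000 cells (vertical axis, whose range differs between panels) for inert and Rbm10 tumours (horizontal axis), with a line joining the values of each mouse. All 10 KTC lines rise from inert to Rbm10, against 7 of 12 in KPTC and 7 of 13 in KLTC.

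The share of all listed cells that Rbm10 tumours held depends most on the largest tumours. In KTC mice Rbm10 made up 2.60%, 3.33% and 3.49% of tumours (lowest, median and highest mouse) and 1.61%, 2.92% and 5.28% of cells, where inert tumours made up a median of 26.6% of tumours and 18.3% of cells. Relative to inert, the mean number of cells per Rbm10 tumour had a log2 ratio of 0.37 ± 0.54 (n = 10), above 0 in 7 mice, which did not pass (adjusted p 0.172, exact sign-flip permutation test, with 2 of 11 targets, 18.2%, rising). In KPTC mice Rbm10 held 0.587%, 2.35% and 16.8% of cells with 2.77% to 4.10% of tumours. The highest value is that of replicate 12, where the tumour of 7.06e+07 cells was 87.2% of the Rbm10 cells, and without it Rbm10 held 2.52% of that mouse's cells. The log2 ratio of mean cells in that mouse was 3.63 with this tumour and 0.67 without it. Over all KPTC mice it was −0.068 ± 1.41 (n = 12), above 0 in 3 and below 0 in 9 (adjusted p 0.910, exact), and −0.40 without replicate 12 (adjusted p 0.301, exact). In KPTC 0 of 11 targets (0%) rose by this test and 2, Rb1 and Setd2, had an unadjusted p under 0.05. KLTC mice had 0.938%, 2.70% and 5.11% of cells in Rbm10 tumours and a log2 ratio of −0.12 ± 0.70 (n = 13, adjusted p 0.733, exact).

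The number of Rbm10 tumours per inert tumour of the same mouse was compared between genotypes only, since the make-up of the virus pool was not used here. It was a log2 ratio of −3.07 ± 0.28 in KTC, −3.05 ± 0.23 in KPTC and −3.03 ± 0.36 in KLTC. Values ran from −3.87 to −2.89, from −3.56 to −2.73 and from −3.92 to −2.65, so the genotypes overlapped throughout. The differences were 0.026 ± 0.11 (SE) for KPTC minus KTC, 0.045 ± 0.13 for KLTC minus KTC and 0.020 ± 0.12 for KLTC minus KPTC. None passed (adjusted p 0.931, 0.983 and 0.964, two-sided permutation tests), and among mice of ID prefix IW all 3 turned negative (−0.085, −0.26 and −0.17). Within KLTC the ratio was −3.24 ± 0.37 in 7 mice of that prefix and −2.78 ± 0.095 in the 6 of prefix ZR. Within KTC it was −2.98 ± 0.046 in 8 mice of that prefix, and −3.87 and −3.03 in the 2 of prefix MW. The lower of these, replicate 9, had 33 Rbm10 tumours. In each genotype the mouse with the lowest ratio also had the highest share of inert tumours and the lowest share of Rbm10 tumours. The inert share was 37.9% in KTC replicate 9, 32.7% in KPTC replicate 9 and 38.5% in KLTC replicate 1. The medians were 26.6%, 27.6% and 26.3%.

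Differences between genotypes ask whether p53 or Lkb1 alters the effect of losing Rbm10. The size effect was lower in KPTC than in KTC, with a mean log2 difference of −0.16 ± 0.063 (SE, 12 mice against 10, adjusted p 0.0409, two-sided permutation test of mouse labels over 11 targets, of which 3, 27.3%, were lower). Among mice of prefix IW it was −0.18 ± 0.061 (7 against 8, adjusted p 0.0410, exact permutation). The difference missed the threshold without any 1 of the KTC mice numbered 10, 9, 8, 7, 4, 2 and 1 or of the KPTC mice numbered 10, 9, 8, 7, 6, 5 and 1, and over all 22 single removals it lay between −0.20 and −0.14. It also missed it under 7 of 10 alternatives: at minimum sizes of 1000 cells (−0.099, adjusted p 0.379), 1500 cells (−0.097, adjusted p 0.717) and 5000 cells (−0.24, adjusted p 0.546), with the median (−0.063, adjusted p 0.408), without tumours whose barcode was 10 times larger in another mouse (−0.15, adjusted p 0.0762) without tumours whose barcode was listed in any other mouse (−0.15, adjusted p 0.0568), and with p adjusted over all comparisons together (0.0613). At the 90th percentile the KPTC effect was lower by −0.34 ± 0.11 (adjusted p 0.0236, permutation, with 3 of 11 targets, 27.3%, lower), and this was −0.28 without KTC replicate 9 (adjusted p 0.0559), and it missed the threshold under 5 of 8 alternatives. These were mice of prefix IW (−0.22, adjusted p 0.0615, exact permutation), removal of all shared barcodes (−0.24, adjusted p 0.0733), and minimum sizes of 1000 cells (−0.18, adjusted p 0.516), 1500 cells (−0.081, adjusted p 0.781) and 5000 cells (−0.093, adjusted p 0.871). The 95th percentile (−0.16 ± 0.18), the share of at least 10000 cells (−1.17 ± 0.50 points, adjusted p 0.0762) and the mean cells per tumour (−0.44 ± 0.44) did not pass.

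Both comparisons with KLTC share mice with this one. The size effect of Rbm10 differed by −0.15 ± 0.18 (SE) between KLTC and KTC and by 0.019 ± 0.19 between KLTC and KPTC, and neither passed (adjusted p 0.605 and 0.925, two-sided permutation tests). The first turned to 0.23 ± 0.21 without barcodes listed 10 times larger elsewhere, a filter that removed a median of 35.0% of the Rbm10 tumours of a KLTC mouse, 6.23% in KPTC and 5.55% in KTC, against 28.7%, 7.65% and 6.30% of the inert ones. For mean cells per tumour, the differences were −0.49 ± 0.26 and −0.050 ± 0.45 (adjusted p 0.300 and 0.921).

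Set directly against the other targets of the same mouse, with inert tumours left out, Rbm10 stood at place 3 of 11 in KTC, 9 in KPTC and 8 in KLTC by mean size effect. In KTC its tumours were smaller than those of Lkb1, the kinase upstream of AMPK and the neighbour above it (log2 ratio −0.74 ± 0.26, smaller in 10 of 10 mice), and of Setd2, the histone methyltransferase of transcribed genes (−0.95 ± 0.47). They did not differ beyond the spread from Rb1, the cell cycle inhibitor just below (0.0067 ± 0.30, adjusted p 0.939, exact sign-flip permutation test over 10 targets), nor from APC (0.070 ± 0.18) and Cdkn2a (0.16 ± 0.21). They were larger than those of 5 of 10 targets (50%), namely Keap1, P53, Arid1a, ATM and Smad4, by log2 ratios from 0.20 to 0.28. At a minimum of 5000 cells 0 of 10 targets differed (2 at an unadjusted p under 0.05). In KPTC mice Rbm10 tumours were smaller than those of 3 of 10 targets (30%), Setd2, Rb1 and Lkb1, and not distinct from the neighbours Smad4 (−0.039 ± 0.21) and Keap1 (0.044 ± 0.22). The P53 vector, whose gene is already deleted there, serves as a further control, and Rbm10 tumours had a ratio of 0.13 ± 0.21 to it (9 of 12 mice, adjusted p 0.119, exact). That control was itself not equal to inert by every measure. Its log-normal mean ratio to inert was −0.029 (adjusted p 0.238, exact). Its median was higher in 10 of 12 mice (0.040, adjusted p 0.0107, exact) and its share of at least 1000 cells in 11 of 12 (1.58 points, adjusted p 0.0094, exact). In KLTC mice only the difference from APC passed (−0.55 ± 0.55, adjusted p 0.0195, exact, 1 of 10 targets), and the neighbours Setd2 and ATM lay at −0.0013 ± 0.64 and 0.15 ± 0.89.

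Of the chromatin and RNA processing list (Setd2, Arid1a and Rbm10), Rbm10 and Setd2 rose in KTC, Setd2 and Arid1a in KPTC, and none in KLTC, against 45.5%, 72.7% and 9.09% of all targets. The 3 targets most like Rbm10 over the 3 genotypes, by the root mean square of the mean log2 ratio, were Keap1, an adaptor for degradation of an antioxidant regulator (0.14), the cell cycle inhibitor locus Cdkn2a (0.17) and the DNA break kinase ATM (0.17). Smad4 and Arid1a followed closely (0.19 each), and Setd2 was the least like it (0.65). The score uses means only, and in KLTC the SDs for Keap1, Cdkn2a and ATM were 0.69, 0.87 and 0.89. In KTC, Rbm10 tumours were larger than those of Keap1 and ATM, as given above, so likeness over the genotypes does not mean likeness in KTC.

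**Figure D5:**
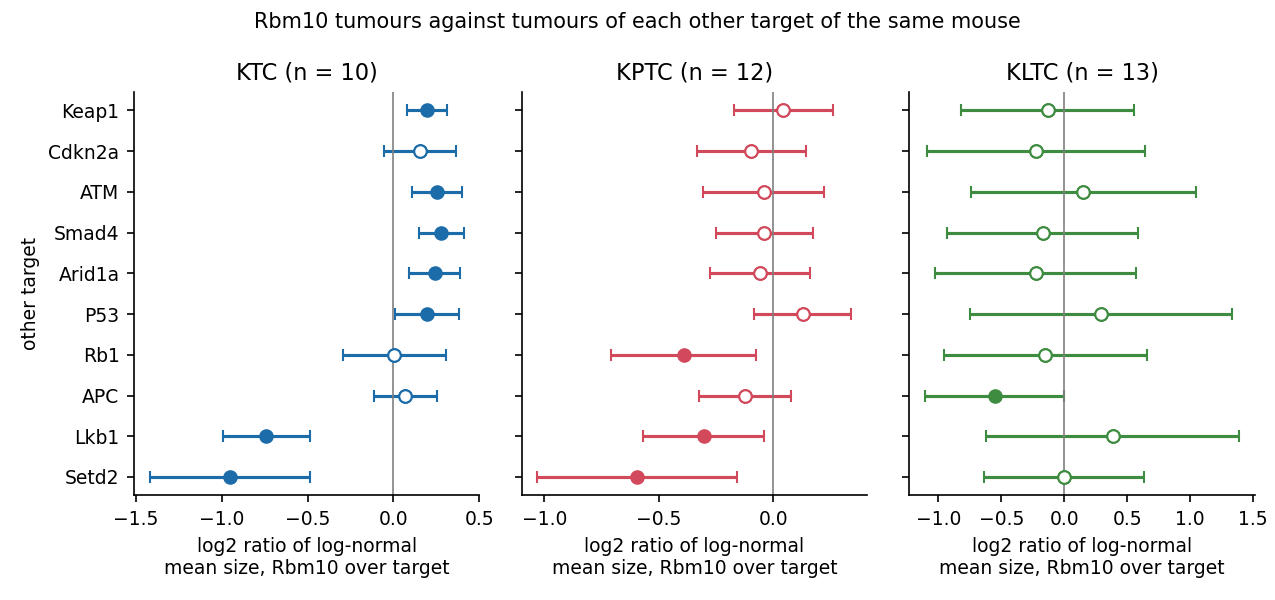
Log-normal mean of Rbm10 tumours over that of each other target within a mouse, as log2 (horizontal axis), by target from most to least like Rbm10 (vertical axis), as mean and SD over mice in each genotype. Filled points passed the exact sign-flip test, 7 in KTC (5 above 0), 3 in KPTC and 1 in KLTC.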

How the data were processed

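Barcodes were amplified from genomic DNA of whole lungs and sequenced, per the labels' protocols. The deposited table holds another kind of unit, the authors' absolute number of cells per barcoded tumour. The sources used here do not give how reads were grouped into tumours or which standard turned reads into cells. Smallest listed size was 500.4 cells. Mice were grouped by the labelled genotype, weeks and treatment. The meaning of the ID prefixes (IW, MW, ZR or none) is not given, and they were treated as possible batches.

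For each mouse and target with at least 10 tumours (20 for the 95th percentile, 100 for the 99th), the log2 ratio to inert tumours of the same mouse was taken for the log-normal mean, the mean and the percentiles, and a difference in percentage points for shares. Effects were tested over mice with two-sided exact sign-flip permutation tests, and between genotypes with permutation of mouse labels (100000 resamples, exact in small groups), each with Benjamini-Hochberg adjustment over 11 targets and a threshold of 0.05. With 10 mice the smallest p a sign-flip test allows is 0.00195. The method was run on simulated data whose added effects were larger than the mean size effects of Rbm10 found here. Whether it would call effects of the latter size was not tested. Python 3.11.15, numpy 2.4.6, pandas 2.3.3 and scipy 1.17.1 were used.

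Named targets are the neighbours of Rbm10 in the order of size effect, the 3 most like it, and a list of chromatin and RNA processing genes; other targets are named where a count of 5 or fewer called them. Members and lists were chosen with earlier results of these data known. Alternatives were minimum sizes of 1000 and 5000 cells, at least 30 tumours, the median, removal of the largest tumour, of barcodes listed 10 times larger elsewhere or of each mouse, mice of prefix IW, and adjustment over all comparisons. A minimum of 1500 cells and removal of all shared barcodes were added after seeing the data.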

Additional observations from a re-analysis of the deposited data

Results flagged for a closer look

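In KTC replicate 9, the KTC mouse with the fewest tumours, Rbm10 made up 2.60% of tumours, which stood apart below the other 9 KTC mice. The log2 number of Rbm10 per inert tumour in the same mouse was −3.87, again the lowest and apart from the others, from 33 Rbm10 tumours. Inert tumours made up 37.9% of the tumours of that mouse, against a KTC median of 26.6%, so both counts enter this ratio. At the 99th percentile, KTC replicate 4 had a log2 ratio of Rbm10 to inert size of 1.36, apart from the other 8 mice with enough tumours. These 3 came from 19 checks for a sample that stands apart, of which chance gives about 1 in 20. The checks covered only KTC mice and the 99th percentile in KLTC, since groups with more mice than KTC were left out. KPTC mice were thus not checked, replicate 12 with 16.8% of cells in Rbm10 tumours included.

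The size effect of Rbm10 differed between KPTC and KTC by −0.16 on the log2 scale of the log-normal mean, and by −0.34 at the 90th percentile, each by the permutation test of the difference itself. The first lost its call under 7 of 10 alternatives and in 14 of 22 removals of a single mouse. The second lost it under 5 of 8 alternatives and in 1 of 22 such removals.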

How the results depend on the processing

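Of 230 recomputed values over 10 alternatives, 153 kept their direction and side of the threshold or, for counts of targets that differed from Rbm10, an equal or similar count. In KTC the size effect, the 90th and 95th percentile and the share of at least 10000 cells kept direction and side without each mouse in turn. The cause of the changes below was not tested beyond the removal that defines each alternative.

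At a minimum of 1000 cells the size effect was 0.19 in KPTC, −0.099 for KPTC minus KTC and −0.10 for KLTC minus KPTC, the 95th percentile in KTC 0.38, the 90th in KLTC −0.19, the share of at least 10000 cells in KLTC −0.23 points, and the number difference −0.072 for KPTC and −0.031 for KLTC, each minus KTC. At 5000 cells the size effect was 0.26 in KTC and −0.24 for KPTC minus KTC, the 95th percentile 0.29 in KTC and −0.31 in KPTC, the 90th −0.0055 in KPTC and −0.19 in KLTC, and the share in KTC 4.57 points. There the number differences were −0.21 (KPTC minus KTC), −0.29 (KLTC minus KTC) and −0.085 (KLTC minus KPTC), and mean cells for KLTC minus KPTC 0.33. At 1500 cells the size effect was 0.33 in KTC, −0.097 for KPTC minus KTC and −0.050 for KLTC minus KPTC, the 95th percentile in KTC 0.20, the 90th in KLTC −0.038, and the number differences −0.10, −0.13 and −0.028 in the same order.

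Without barcodes listed 10 times larger elsewhere, the size effect was −0.15 for KPTC minus KTC and 0.23 for KLTC minus KTC, mean cells 0.017 in KLTC and 0.094 for KLTC minus KPTC, and the number difference −0.077 for KLTC minus KTC and −0.12 for KLTC minus KPTC. Without any shared barcode, the size effect was −0.15 for KPTC minus KTC and 0.0094 for KLTC minus KTC, the 95th and 90th percentiles in KLTC 0.21 and −0.12, the share in KPTC −0.015 points, mean cells 0.098 in KPTC, 0.10 in KLTC and 0.0048 for KLTC minus KPTC, and the number differences −0.027, −0.31 and −0.28. Among mice of prefix IW the number differences were −0.085, −0.26 and −0.17.

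Without the largest tumour the size effect was −0.21 in KLTC and −0.23 for KLTC minus KPTC, the share of at least 10000 cells 1.22 points in KTC and −0.69 in KLTC, and the 90th percentile in KLTC −0.12. This removal took a larger part of the Rbm10 tumours than of the more numerous inert ones. With the median in place of the log-normal mean the effects were 0.043 in KTC, −0.020 in KPTC, −0.030 in KLTC, −0.063 for KPTC minus KTC and −0.010 for KLTC minus KPTC. Adjusted over all comparisons, KPTC minus KTC (−0.16) had an adjusted p of 0.0613 (permutation).

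By the exact sign-flip permutation test, targets that differed from Rbm10 numbered 7 in KTC, 3 in KPTC and 1 in KLTC. In KTC there were 0 at 5000 cells (2 at an unadjusted p under 0.05) and 3 at 1500. In KPTC there were 1 at 5000 cells, 0 in prefix IW (3 unadjusted) and 5 without either kind of repeated barcode. In KLTC there were 2 without barcodes 10 times larger elsewhere, and 0 at 1000 cells (1 unadjusted), 5000 and 1500 cells, without shared barcodes (0 unadjusted in these 3) and in prefix IW (1 unadjusted).

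Leaving out each mouse in turn, the size effect ran from 0.059 to 0.12 in KPTC, −0.20 to −0.14 for KPTC minus KTC and −0.092 to 0.090 for KLTC minus KPTC. The 95th percentile in KPTC ran from 0.19 to 0.38, the 90th for KPTC minus KTC from −0.38 to −0.28, and the share in KLTC from −0.17 to 1.23 points. Mean cells ran from −0.40 to 0.035 in KPTC, −0.19 to 0.022 in KLTC and −0.15 to 0.29 for KLTC minus KPTC. The number difference ran from −0.063 to 0.072 (KPTC minus KTC), −0.043 to 0.12 (KLTC minus KTC) and −0.027 to 0.094 (KLTC minus KPTC). Mice of different genotypes could not be paired, because replicate numbers were given in accession order and pair no mice. Sizes near the smallest listed are few steps, and KLTC mice had as few as 19 Rbm10 tumours, which limits their percentiles.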
